A study of Rattus norvegicus with 28 samples.

Results

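Microtubules are hollow polymers of alpha and beta tubulin that give axons and dendrites their tracks, carry the beating of cilia and form the spindle of dividing cells. Gamma tubulin and its ring complex start new filaments, kinesins walk along them with cargo or take them apart, kinesin light chains couple the motor to its load, and microtubule-associated proteins such as tau (Mapt) and Map2 bind along the lattice. In the spinal cord, several tubulin isotypes, motors and microtubule-associated proteins are known from neurons, while another set of kinesins is known from mitosis, so that the family as a whole reads out very different cells.

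The family was taken from the gene names of the array by pattern: names beginning with Tuba, Tubb or Tubg, Kif or Klc followed by a digit, and Map1a, Map1b, Map2, Map6, Map7 and Mapt. It held 58 of the 35469 gene features and 88 of the 41012 probes, and the pattern itself uses names and not values. It comprised 5 alpha tubulins, 6 beta tubulins, gamma tubulin with its ring complex (4 genes), 10 mitotic kinesins, 13 transport kinesins, 10 other kinesins, 4 kinesin light chains and 6 microtubule-associated proteins. Tuba1a, Tuba1b, Tubb2a and Map4 had no feature under their own names. By RefSeq accession, symbol or synonym all 58 members matched a current rat gene, and 3 carry another symbol today, namely Tubb4a for Tubb4, Tubb4b for Tubb2c and Kif4a for Kif4. Signal was well above background on all 28 arrays for 47 members, on some arrays for 9 and on no array for Kif12 and Kif14.

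RNA was measured on 28 single-colour arrays of spinal cord from adult female Sprague Dawley rats, 4 arrays in each of 7 groups, each from 1.5 cm of thoracic cord around the injury. T0 was cord of rats that the labels call sham and the methods uninjured. T1, T2, T4 and T8 were cords taken 1, 2, 4 and 8 weeks after a severe contusion of 250 kdyn. T1_NPC cords received neural progenitor cells (NPCs), grown from injured adult rat cord, right after the injury and were taken at 1 week, and T2_NPC cords received them 1 week after injury and were taken at 2 weeks. The labels give FK-506, an immunosuppressant, from the day before transplantation to the end and the methods give it to all animals, with injured controls receiving medium without cells. The T2_NPC samples are labelled as a slightly shorter thoracic segment than the others.

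All levels below are log2 values of the authors' quantile-normalized table, averaged per gene, so that 1 unit is a factor of 2. A gene was called when the Benjamini-Hochberg adjusted p over all 35469 features was under 0.05 in limma, with 1 fit over the 28 arrays, and errors after ± are standard errors of the difference unless given as SD. Between 74.51% and 82.68% of spots were well above background on an array and none was saturated; precision is set by how many arrays each group has. The labels do not say that each array is a separate rat. The methods give 4 animals per injured group for the arrays, and the paper calls the replicates biological. The p-values measure the spread between these samples. The deposited scanner outputs and the table name different samples for 16 of the 28 arrays. With scanner outputs under their own labels, 0 members were called in any comparison, and with only the 12 arrays on which both sources agree, every member called against T0 in the full data had the same sign. Those 12 hold 1 array each of T1 and T4, 2 each of T0, T2 and T8, 4 of T2_NPC and none of T1_NPC, and are part of the full data. By scanner outputs matched to the table by rank order, the T1_NPC arrays all lay on 1 slide and the T2_NPC arrays on another. These slides were in a scan session apart from the time course, so transplantation cannot be told apart from slide and session. Under the outputs' own labels each group also lay on a slide of its own, but shared its session with time-course arrays.

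Probe sequences matter in this family because isotypes are close copies of each other. The following 60-base probes are shown because they bear on how the tubulin values can be read. Capitals mark the longest run (10 bases or more) shared with a tubulin probe of another name. Probes were compared with probes and not with transcripts, so a probe without capitals may still bind transcripts of other tubulins.
Tubb6, downstream probe: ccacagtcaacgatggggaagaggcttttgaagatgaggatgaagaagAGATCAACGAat
Tubb6, upstream probe: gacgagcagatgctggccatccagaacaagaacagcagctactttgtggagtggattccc
Tubb5: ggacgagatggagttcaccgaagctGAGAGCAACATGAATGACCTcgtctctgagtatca
Tubb2b: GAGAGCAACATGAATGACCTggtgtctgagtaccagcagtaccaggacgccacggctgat
Tuba1c, shared probe: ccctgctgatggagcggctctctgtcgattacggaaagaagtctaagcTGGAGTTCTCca
In the array annotation (rat build rn4) the Tubb6 probes lie at chr18:63928978-63929037 and chr18:63928674-63928733 on the plus strand, with 304 bases between their starts, and both list the same Tubb6 transcript. The Tubb5 probe (chr20:3063856-3063915) and this Tubb2b probe (chr17:37090616-37090675) share a run of 20 bases. All 3 Tubb2b probes also list a Tubb2a transcript. The shared Tuba1c probe (chr5:162120181-162120240) lists transcripts of Tuba1a and Tuba1b beside Tuba1c. The other Tuba1c probe lists the RefSeq transcript of Tuba1c and none of Tuba1a or Tuba1b. Gene values named Tubb2b, and those named Tuba1c through the shared probe, are therefore uncertain between these genes.

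At 1 week after injury 9 of the 10 mitotic kinesins rose, while 5 of the 6 microtubule-associated proteins and 8 of the 13 transport kinesins fell. Of the 58 members, 11 were called higher in T1 than in T0, a share of 19.0% beside 19.1% of all features, and 25 were called lower, 43.1% beside 25.1% of all features. At T2 the counts were 11 higher and 27 lower (all features: 17.7% and 22.2%), at T4 12 and 26 (17.5% and 21.0%), and at T8 10 and 27 (18.2% and 21.5%). The median log2 difference of the members was -0.28, -0.35, -0.28 and -0.37 at the 4 times, and that of all features -0.10, -0.06, -0.06 and -0.04. These comparisons share the T0 arrays. Over the time course 9 members were called higher at every time (Kif15, Kif18a, Kif20a, Kif22, Kif23, Kif2c, Kif4, Kif7 and Tubb6). Another 21 were called lower at every time, 13 were called at some times and 15 at none. The share of all features called at every time is not given here, so these counts do not set the family apart. The paper states that most of its differentially expressed genes were found at every time. Within each of the scan sessions that hold the time course, every called member had the sign of the pooled fit at each of the 4 times. However, 1 session holds a single T1 and a single T4 array, and all these arrays are in the pooled fit. The arrays of that session are the time-course arrays among the 12 on which both sources agree. Its check therefore repeats the one on those arrays.

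**Figure D1:**
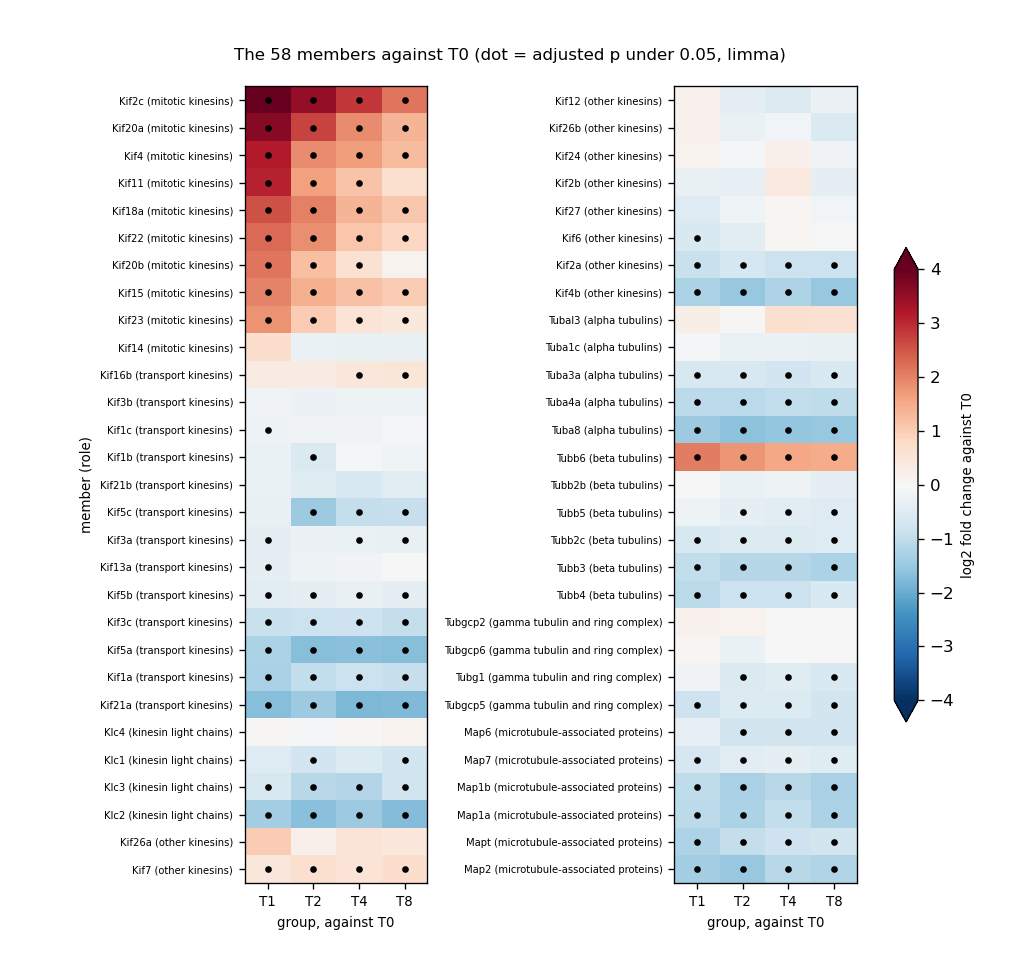
Heat map of the log2 fold change of each of the 58 members (rows, with their role) in T1, T2, T4 and T8 against T0 (columns); red is higher and blue lower than T0, the scale is symmetric about 0, and a dot marks an adjusted p under 0.05. Apart from Kif14, the block of mitotic kinesins is red, from 4.79 for Kif2c at T1. Most tubulins, transport kinesins and microtubule-associated proteins are blue, with Tubb6 and Kif16b red.

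Mitotic kinesins carried the largest changes of the family. Of the 10, 9 were called higher in each of T1, T2 and T4, and 7 still at T8, with medians of 2.40, 1.74, 1.15 and 0.92 on the log2 scale. The exception was Kif14, a kinesin of cytokinesis, whose probe was not well above background on any array. These medians include Kif14, and without it they were 2.55, 1.86, 1.16 and 1.02.

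Kif2c (MCAK), which takes microtubules apart at the centromere, rose most. Its T0 arrays read 4.13, 5.32, 3.15 and 3.72, of which 1 was well above background, and its T1 arrays 8.51, 9.20, 8.43 and 9.34. The T2 arrays read 7.67, 7.30, 7.32 and 8.03, the T4 arrays 7.45, 6.97, 6.89 and 6.26, and the T8 arrays 6.81, 5.93, 6.32 and 5.82. All 16 injured arrays lay above all T0 arrays, and every T1 array lay above every later one. The difference from T0 was 4.79 ± 0.37 at T1 (adjusted p = 3.74e-10) and 2.14 ± 0.37 at T8 (adjusted p = 5.71e-05).

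Kif20a (MKLP2), needed to finish cytokinesis, rose next most. It read 7.04, 7.47, 7.16 and 7.07 at T0, 10.96, 10.86, 10.30 and 11.26 at T1, and 9.66, 10.03, 9.99 and 9.92 at T2. At T4 it read 9.35, 8.90, 8.85 and 9.15, and at T8 8.65, 8.58, 8.40 and 8.61. The 5 groups did not overlap at all, and each later group lay below the one before it. Against T0 the difference was 3.66 ± 0.26 at T1 (adjusted p = 6.63e-11) and 1.37 ± 0.26 at T8 (adjusted p = 1.39e-04).

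Kif4, a chromokinesin of the spindle midzone, rose by 3.16 ± 0.33 at T1, from 4.27, 5.66, 4.55 and 5.74 at T0 to 7.75, 8.52, 7.80 and 8.79. Kif11 (Eg5), which pushes the spindle poles apart, rose by 3.07 ± 0.34, from 2.71, 2.79, 1.79 and 2.99 to 5.39, 5.89, 5.38 and 5.89. The groups did not overlap for either gene, although Kif4 was well above background on 3 and Kif11 on 2 of the T0 arrays. Of the 2 probes of Kif11, the brighter was higher than T0 by 2.65 at T2 and 1.34 at T8, both called in a fit over all probes. The dimmer was well above background on 2 T1 arrays only and gives no comparison of the other groups, although it enters the gene value.

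The other members of the group followed with smaller values. Kif18a, which limits chromosome oscillation, was higher at T1 by 2.55 ± 0.25, Kif22 (Kid), which moves chromosome arms, by 2.26 ± 0.20, and Kif20b, a kinesin of abscission, by 2.14 ± 0.21. Kif15, a partner of Eg5 in the spindle, was higher by 1.99 ± 0.22 and Kif23 (MKLP1), of the central spindle, by 1.79 ± 0.15. All 5 were called at T1, T2 and T4, and Kif20b was no longer called at T8, where it differed from T0 by 0.15 ± 0.21 (adjusted p = 0.636). Kif11 was not called at T8 either, at 0.65 ± 0.34 (adjusted p = 0.143).

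**Figure D2:**
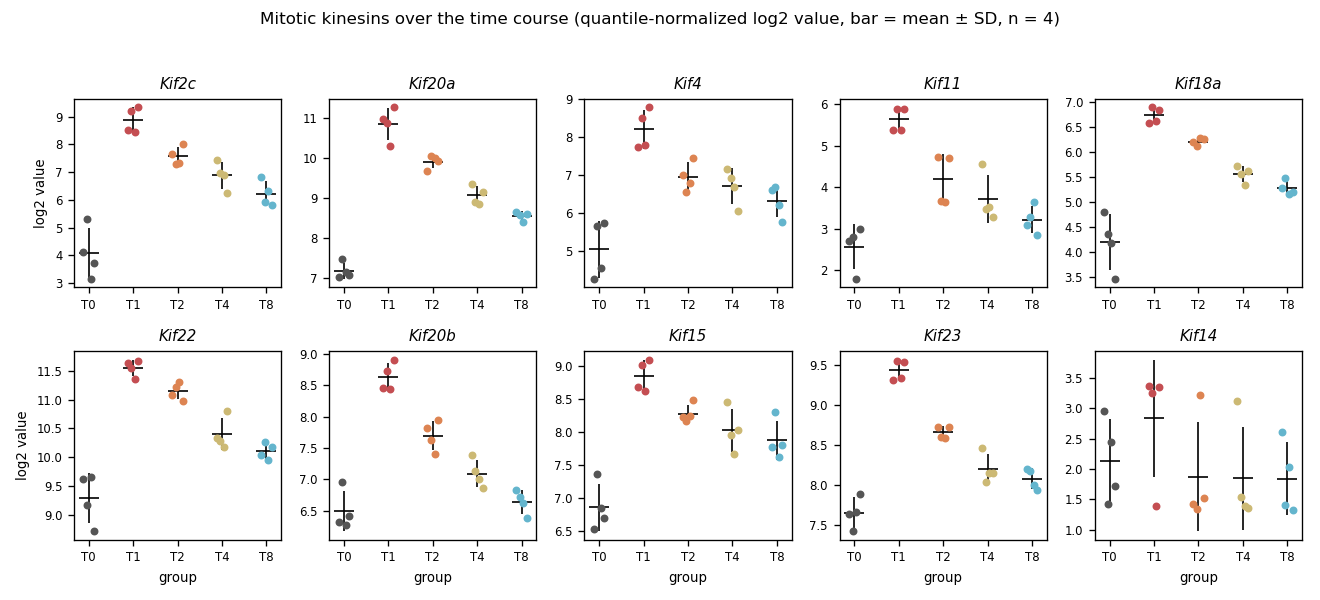
Log2 value of the 10 mitotic kinesins on each array of T0, T1, T2, T4 and T8; each point is 1 array, the horizontal mark is the group mean and the vertical bar its SD (n = 4), and each panel has its own axis. Apart from Kif14, which was not well above background, group means are highest at T1 and step down to T8, with Kif2c going from a mean of 8.87 at T1 to 6.22 at T8.

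The decline after the first week was tested between injured groups. Between T2 and T1, 0 members were called higher and 3 lower, where 0.815% and 0.665% of all features were called. The 3 were Kif11 (-1.44 ± 0.34, adjusted p = 0.0304), Kif20b (-0.93 ± 0.21, adjusted p = 0.0266) and Kif23 (-0.78 ± 0.15, adjusted p = 0.00768), and the median of the mitotic kinesins was -0.94. For Kif11 the dim probe carries most of the difference: the brighter differed by -0.85 ± 0.43 (adjusted p = 0.38), and neither was called on its own. The count was 0 with the 12 undisputed arrays, which hold 1 of T1, it was 1 with only both groups in the fit, and between 1 and 6 when single arrays were left out. Between T8 and T1, 10 members were called lower and 2 higher (4.42% and 5.45% of all features). Of those lower, 9 were mitotic kinesins, from Kif15 at -0.97 ± 0.22 to Kif2c at -2.65 ± 0.37, and the tenth was Tubb6. Higher at T8 than at T1 were Mapt (0.49 ± 0.15, adjusted p = 0.0405) and Kif13a, a kinesin of endosomal and receptor transport (0.35 ± 0.09, adjusted p = 0.0128). The call of Mapt was lost without T1 replicate 2, 3 or 4 or T8 replicate 1, 2 or 4 (adjusted p between 0.0611 and 0.178), with a replicate block (0.0548), with 75th-percentile scaling (0.095) and with only both groups (0.134). That of Kif13a was lost without T8 replicate 1 (0.0558) or 4 (0.0652), with the brightest probe (0.131) and with only both groups (0.141).

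Neighbouring later times gave no call. Between T4 and T2 limma called 0 members, with 9 at an unadjusted p under 0.05, and 0.0507% of all features were called higher and 0.0254% lower. Between T8 and T4 it called 0, with 2 at an unadjusted p under 0.05, and 0.0874% and 0.00282% of all features were called. The 9 mitotic kinesins other than Kif14 had lower means at T4 than at T2 and at T8 than at T4, with medians of -0.60 and -0.40 and no call.

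Genes of the wider spindle and division machinery moved beside them. Of 17 listed genes on the array, among them the checkpoint kinase Bub1b, the spindle organiser Tpx2 and the bundling protein Prc1, 17 were called higher 1 week after injury, 14 at T2, 15 at T4 and finally 12 at T8, with medians of 2.92, 1.97, 1.57 and 0.86. Prc1 was higher than T0 by 3.56 at T1 and 1.13 at T8, and Tpx2 by 2.92 and 1.26. The mean level of the 4 proliferation markers on the array (Ccnb1, Cdc2, Pcna and Top2a) ranged from 8.10 to 8.57 at T0, from 11.17 to 11.67 at T1 and from 9.43 to 9.75 at T8. Markers of microglia and macrophages ranged from 9.28 to 9.51 at T0 and from 11.88 to 12.43 at T1, and those of fibroblasts and pericytes from 9.94 to 10.61 and from 14.08 to 14.90. The part of cell number in these kinesin values was not tested, and in bulk tissue fewer or more cells of a type cannot be told apart from less or more RNA per cell.

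Promoters of the mitotic kinesins were read because these genes moved together. RefSeq promoters (build GRCr8) were found for 9 of the 10 and for 49 of the 58 members, and the 250 bases before the start were searched on both strands. The CHR, an element of late cell cycle promoters, was searched as TTTGAA or TTCGAA, the CCAAT box as CCAAT, and the E2F site as TTTCCCGC or TTTGGCGC. Motifs share some letters, as TTTG in TTTGAA and TTTGGCGC, but none contains another. A CHR stood in 4 of the 9 (17.3% of all 27457 promoters, and 15.0% of the other 40 member promoters), a CCAAT in 6 of 9 (34.3% and 40.0%), both in 3 of 9 (6.22% and 10.0%) and an E2F site in 1 of 9 (1.26% and 0.0%). The 150 bases before the start are shown for the genes with CHR and CCAAT closest together and for the largest risers, with motifs in capitals.
Kif23, chr8:71320585-71320734 (-): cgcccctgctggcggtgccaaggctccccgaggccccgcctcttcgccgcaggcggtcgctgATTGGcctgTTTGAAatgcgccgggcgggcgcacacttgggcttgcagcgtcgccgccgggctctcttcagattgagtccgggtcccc
Kif22, chr1:191080879-191081028 (-): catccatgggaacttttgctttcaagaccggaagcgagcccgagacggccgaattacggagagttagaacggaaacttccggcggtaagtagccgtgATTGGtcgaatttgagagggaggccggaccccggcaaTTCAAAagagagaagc
Kif20a, chr18:26504272-26504421 (+): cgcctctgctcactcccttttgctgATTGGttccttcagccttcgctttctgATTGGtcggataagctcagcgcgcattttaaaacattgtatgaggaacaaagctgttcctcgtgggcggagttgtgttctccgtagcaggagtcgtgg
Kif2c, chr5:135899213-135899362 (-): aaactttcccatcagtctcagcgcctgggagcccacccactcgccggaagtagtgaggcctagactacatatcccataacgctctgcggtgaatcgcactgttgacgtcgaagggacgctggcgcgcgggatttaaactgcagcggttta
In Kif23 a CCAAT on the minus strand began 88 bases and a CHR 79 bases before the start. In Kif22 the CCAAT began 53 and the CHR 16 bases before it. Kif20a held CCAAT at 125 and 98 bases within the stretch shown, and Kif2c, which rose most, held none of these letters in its 250 bases. These are matches of letters and not sites shown to be used.

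Among the tubulins, Tubb6 was the one that rose, and its rise came from 1 of its 2 probes. The gene value was 11.36, 11.36, 11.06 and 11.28 at T0 and 13.26, 13.42, 13.10 and 13.50 at T1. It was higher than T0 by 2.06 ± 0.13 at T1 (adjusted p = 6.45e-12), 1.76 at T2, 1.56 at T4 and 1.49 ± 0.13 at T8 (adjusted p = 2.48e-09), and no injured array overlapped T0. Tubb6 is a beta tubulin of low abundance in most tissues, known from muscle regeneration and bone-resorbing cells.

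The downstream probe of Tubb6 read 9.13, 8.76, 8.68 and 8.64 at T0 and 12.71, 12.93, 12.52 and 12.84 at T1, a difference of 3.95 ± 0.17 in a fit over all probes (adjusted p = 8.72e-15). The upstream probe, shown above, read 13.58, 13.96, 13.44 and 13.93 at T0 and 13.82, 13.91, 13.68 and 14.17 at T1, a difference of 0.17 ± 0.14 (adjusted p = 0.352). At T8 the differences were 3.22 ± 0.17 and -0.23 ± 0.14. Both probes were well above background on every array. With the brightest probe per gene, which is the upstream one, Tubb6 was not called and its sign turned at T2, T4 and T8. Whether the upstream probe also binds other beta tubulins was not tested, since no transcript sequences were at hand.

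**Figure D3:**
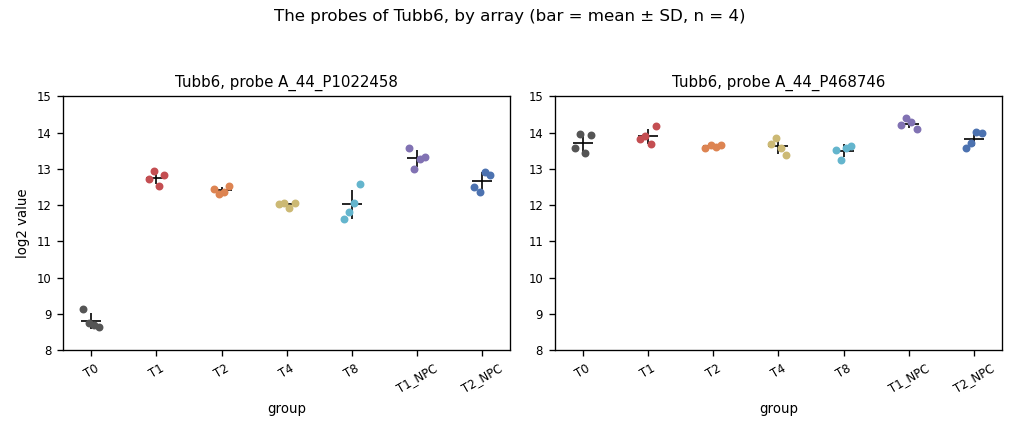
Log2 value of the downstream (left) and the upstream (right) probe of Tubb6 on each array of the 7 groups, on the same axis; points are arrays and bars the mean ± SD (n = 4). The left panel steps from a mean of 8.80 at T0 to 12.75 at T1, and the right panel stays between 13.50 and 14.25 in all group means.

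The other tubulins fell or were not called. Of the alpha tubulins 3 of 5 were called lower at each time: Tuba4a, an isotype of mature neurons and other cells, Tuba8 and Tuba3a. Tuba4a read 16.39, 16.32, 16.30 and 16.42 at T0 and 15.59, 15.22, 15.58 and 14.88 at T1, without overlap, with log2 differences of -1.04 ± 0.17 at T1 (adjusted p = 2.73e-05) and -1.03 at T8. Tuba8 differed by -1.46 at T1 and -1.53 at T8, with 10.02, 10.07, 9.90 and 10.18 at T0 against 8.46, 8.34, 8.66 and 8.60 at T8. Tuba3a differed by -0.64 and -0.62. Tuba1c, whose shared probe also lists transcripts of Tuba1a and Tuba1b, differed from T0 by between -0.04 and -0.30 and was not called at any time.

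Of the beta tubulins, Tubb3, the isotype used to mark neurons, fell at every time. It read 14.95, 14.79, 14.56 and 15.00 at T0, 14.03, 13.83, 13.99 and 13.52 at T1, and 13.71, 13.24, 13.90 and 13.45 at T8. All T1 and T8 arrays lay below all T0 arrays, while T1 and T8 overlapped, with differences from T0 of -0.98 ± 0.20 at T1 (adjusted p = 2.67e-04) and -1.25 ± 0.20 at T8 (adjusted p = 1.82e-05). Tubb4 fell as well, most at T1 (-1.06) and least at T8 (-0.61), and Tubb2c was lower at every time (-0.50 to -0.64). Tubb5, a widely expressed isotype, was not called at T1 (-0.21, adjusted p = 0.0948) and was called lower from T2 to T8 (-0.36, -0.45 and -0.52). Tubb2b was not called at any time, although the probe shown above was called lower at each of them, between -0.36 and -0.49. Gamma tubulin itself (Tubg1) was called lower from T2 on (-0.59, -0.49 and -0.62), Tubgcp5 of the ring complex at every time (-0.55 to -0.82), and Tubgcp2 and Tubgcp6 at none.

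Microtubule-associated proteins fell together: 5 of 6 were called lower at T1 and 6 of 6 at T2, T4 and T8, with medians of -1.03, -1.11, -0.91 and -0.98. Map2, of dendrites, read 11.18, 10.95, 10.76 and 10.94 at T0 and 9.98, 9.38, 9.91 and 9.16 at T1, a difference of -1.35 ± 0.25 (adjusted p = 1.01e-04). Map1b, prominent in growing axons, differed by -1.02 ± 0.19 at T1 and -1.28 ± 0.19 at T8, and its 4 probes that list the Map1b transcript were each called lower at all 4 times. The other probe, which enters the gene value, lies on the opposite strand and lists only an expressed sequence tag, so that it may not measure Map1b. Map1a, of mature neurons, differed by -1.04 ± 0.12 and -1.26 ± 0.12.

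Mapt (tau), of axons, had its lowest mean at T1. It read 14.47, 14.21, 14.23 and 14.26 at T0, 13.32, 12.82, 13.06 and 13.05 at T1, and 13.49, 13.90, 13.21 and 13.62 at T8. T8 lay below T0 on every array and overlapped T1. Its 2 probes gave -1.24 and -1.22 at T1 and -0.70 and -0.76 at T8. Map6 (STOP), which stabilises axonal microtubules, was not called at T1 (-0.33) and was lower at T2, T4 and T8 (-0.74, -0.73 and -0.78). Map7, a partner of kinesin-1 found outside neurons too, was lower at every time (-0.37 to -0.66).

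Transport motors fell in part. Of the 13 transport kinesins, 8 were called lower at T1 and 7 at each later time. Of all features 25.1% were called lower at T1, and 22.2%, 21.0% and 21.5% at T2, T4 and T8. Kif5a, the neuronal heavy chain of kinesin-1, read 9.45, 9.81, 9.38 and 9.84 at T0, 8.36, 8.29, 8.55 and 8.22 at T1, and 8.25, 7.45, 8.07 and 7.91 at T8, with T0 above both, overlap between T1 and T8, and differences from T0 of -1.26 ± 0.25 and -1.70 ± 0.25. Kif5c, another neuronal heavy chain, was not called at T1 (-0.29 ± 0.31, adjusted p = 0.485), where its arrays read 7.98, 8.11, 8.56 and 8.33 against 8.43, 9.03, 8.22 and 8.47 at T0. At T2 it read 6.60, 7.19, 6.89 and 7.62 and was lower by a log2 difference of -1.46 ± 0.31 (adjusted p = 4.36e-04). Kif5b, the heavy chain found in all tissues, was called lower at every time (-0.29 to -0.45).

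Kif1a, a motor of synaptic vesicle precursors, was at 11.78, 11.78, 11.77 and 11.77 at T0 and 10.41, 10.36, 10.58 and 10.58 at T1, a difference of -1.30 ± 0.13 (adjusted p = 3.55e-08). Kif21a, which also regulates microtubule growth, differed by -1.70 ± 0.22 at T1 and -1.77 ± 0.22 at T8, from 8.24, 8.22, 7.83 and 7.59 at T0 to 6.20, 6.57, 6.08 and 5.96 at T8. Kif3c, a neuronal subunit of kinesin-2, differed by -0.82 to -0.94, against -0.24 to -0.38 for its partner Kif3a, called at T1, T4 and T8, and -0.14 to -0.22 for Kif3b, which was not called. Kif16b, of early endosomes, went the other way and was called higher at T4 (0.46) and T8 (0.48). Its call at T8 was lost with the brightest probe (adjusted p = 0.0508) and without T8 replicate 1 (0.0512).

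Klc2 fell furthest among the light chains. It read 13.01, 13.36, 12.82 and 13.53 at T0 and 11.70, 10.99, 11.78 and 11.28 at T8, a difference of -1.74 ± 0.22 (adjusted p = 7.83e-07). Klc3 was lower at every time (-0.65 to -1.17) and Klc4 was not called. Klc1 was called at T2 (-0.77) and T8 (-0.78) only, and its probes disagreed: 1 was called lower at all 4 times (-0.95 to -1.30) and the other, which lists a further RefSeq transcript, at none (-0.09 to -0.43). At T0 Klc1 already ranged from 13.65 to 14.78. Its call at T2 was lost without T0 replicate 2 (adjusted p = 0.0634) or 4 (0.0698), and with only both groups in the fit (0.071).

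**Figure D4:**
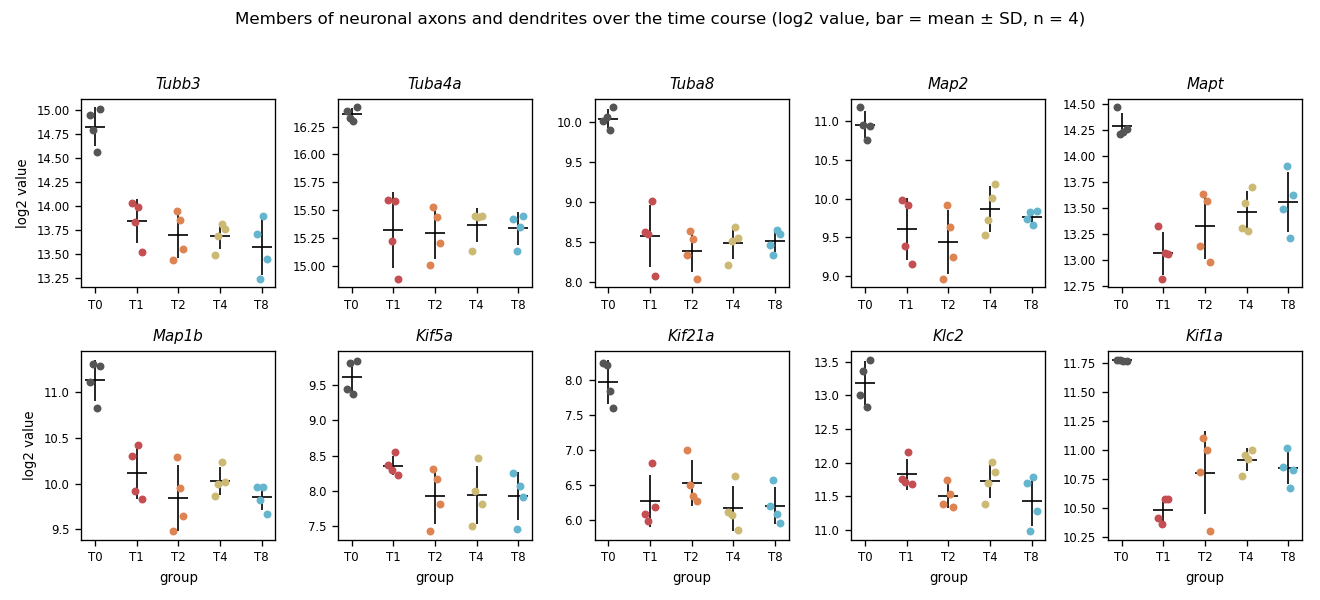
Log2 value of 10 tubulins, microtubule-associated proteins and motors on each array of the time course; points are arrays, bars the mean ± SD (n = 4), and each panel has its own axis. All 4 injured groups lie below T0 in each panel, and the mean of Mapt is 13.06 at T1 and 13.56 at T8.

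Other kinesins were mostly dim or not called. Kif7, which works at the tip of the primary cilium in hedgehog signalling, was called higher at every time, from 0.44 ± 0.17 at T1 (adjusted p = 0.0402) to 0.69 ± 0.17 at T8 (adjusted p = 0.0021), and read 9.90, 10.06, 10.09 and 9.84 at T0 against 10.68, 10.75, 10.63 and 10.59 at T8. Its call at T1 was lost without T0 replicate 1 or 4 or T1 replicate 3 or 4 (adjusted p between 0.0718 and 0.114), and with 75th-percentile scaling (0.0611), normexp (0.0769), the brightest probe (0.174) and a session (0.051) or slide block (0.0791). Kif2a, a depolymeriser related to Kif2c, was lower at every time (-0.71 to -0.90), where Kif2c rose. Kif4b, named as a close relative of Kif4, was lower at every time (-1.23 to -1.51). Kif6, known from ependymal cilia, was lower at T1 only (-0.59 ± 0.21), and ciliated cell markers ranged from 8.15 to 8.36 at T0 and from 7.63 to 7.89 at T1. Kif12, Kif24, Kif26a, Kif26b, Kif27 and Kif2b were not called at any time, of which Kif26a spread from 5.61 to 7.19 within T0.

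Markers of neurons fell beside these members. All 10 neuron markers on the array were well above background on every T0 array, and their mean level ranged from 12.52 to 12.88 at T0, 10.61 to 11.54 at T1, 10.32 to 11.44 at T2, 10.51 to 11.31 at T4 and 10.69 to 11.08 at T8. Of these, 9 were called lower at T1 and at T8 and 10 at T2 and T4, with medians of -1.67, -1.81, -1.66 and -1.69. Oligodendrocyte markers ranged from 14.88 to 15.17 at T0 and from 13.97 to 14.21 at T1. Their part in the fall of the tubulins, motors and microtubule-associated proteins was not tested.

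Other microtubule genes behaved alike in part. Of 22 genes for microtubule assembly, ends and severing, 15 were called lower at T1 and 14 at each later time, led by the stathmin Stmn3 (-1.80 at T1), while 2 were called higher at all times: the end-binding protein Mapre1 (0.97 at T1) and the plus-end protein Clip1 (1.05). The neuronal relative of Mapre1, Mapre3, differed by -1.44. Of 19 dynein and dynactin genes, 9 were lower and 3 higher at T1, with Dync1i1, the intermediate chain known from neurons, at -1.94, its widely expressed relative Dync1i2 at 0.01 and the light chain Dynlt1 at 0.78. Of 8 genes for tubulin folding and modification, 5 were lower at T1, with the deglutamylase Agtpbp1 at -1.22. The medians of the 3 lists at T1 were -0.75, -0.24 and -0.51, beside -0.10 for all features. Of all features 19.1% were called higher and 25.1% lower at T1.

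Transplantation was compared at matched times. In T1_NPC against T1, 3 members were called higher (5.45% of all features were) and 1 lower (6.46%), and in T2_NPC against T2, 4 were called higher (4.62%) and 1 lower (4.85%). The median difference of the members was 0.06 and 0.09. Kif1b, which carries mitochondria and synaptic vesicle precursors, and Kif3a, the shared motor subunit of kinesin-2, were called higher in both.

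Kif1b read 9.33, 10.26, 9.65 and 9.59 in T1_NPC and 9.01, 8.93, 8.57 and 9.18 in T1, a difference of 0.78 ± 0.20 (adjusted p = 0.0132). In T2_NPC it read 9.74, 9.84, 9.82 and 9.75 against 8.01, 8.99, 8.82 and 8.54 in T2, a difference of 1.19 ± 0.20 (adjusted p = 6.41e-04). The groups did not overlap at either time, and 7 of the 8 transplanted arrays lay above every T0 array, which read 9.12, 9.15, 8.84 and 9.58. One of its probes was called higher in both (1.20 and 1.58), and the other in T2_NPC only (0.37 and 0.80).

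Kif3a read 11.85, 11.71, 11.84 and 11.70 in T1_NPC against 11.48, 11.25, 11.23 and 11.10 in T1 (0.51 ± 0.11, adjusted p = 0.00306), and 11.73, 11.80, 11.85 and 11.82 in T2_NPC against 11.30, 11.53, 11.48 and 11.30 in T2 (0.40 ± 0.11, adjusted p = 0.0195). No transplanted array overlapped its injured control, and the T0 arrays lay at 11.85, 11.52, 11.68 and 11.52. Tubb6 was higher in T1_NPC, at 13.90, 13.70, 13.78 and 13.71 against 13.26, 13.42, 13.10 and 13.50 (0.45 ± 0.13, adjusted p = 0.0236), and farther from T0. In T2_NPC it differed by 0.22 ± 0.13 and was not called.

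Klc1 was higher in T2_NPC, at 14.16, 14.13, 14.38 and 14.37 against 13.56, 13.35, 13.21 and 13.63 (0.82 ± 0.24, adjusted p = 0.0362), and 0.55 ± 0.24 higher without a call in T1_NPC (adjusted p = 0.144). Tubgcp6 was higher in T2_NPC by 0.58 ± 0.13 (adjusted p = 0.00654), where T2 was the lowest of the groups. Map1a was lower in T1_NPC, at 10.17, 10.50, 10.36 and 10.42 against 10.84, 10.90, 11.07 and 10.84 (-0.55 ± 0.12, adjusted p = 0.00491), but was not called with its brightest probe (-0.33, adjusted p = 0.171). Kif23 was lower in T2_NPC by a log2 difference of -0.51 ± 0.15 (adjusted p = 0.0329).

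**Figure D5:**
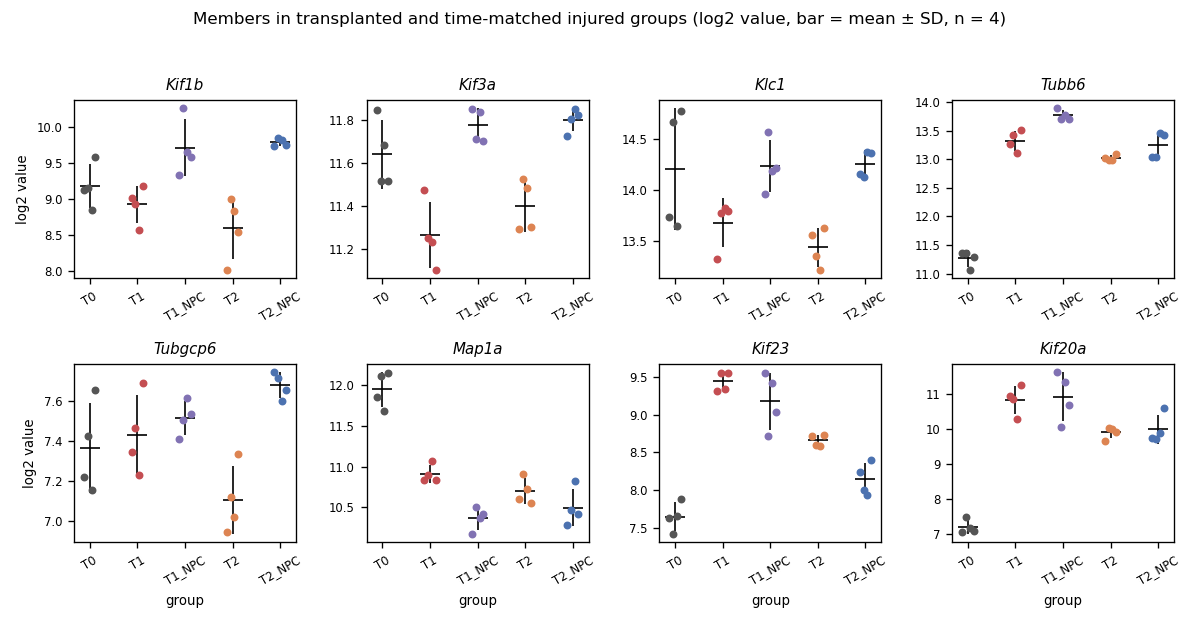
Log2 value of the 7 members called in a transplanted group, and of Kif20a, on each array of T0, T1, T1_NPC, T2 and T2_NPC; points are arrays, bars the mean ± SD (n = 4), and each panel has its own axis. Kif1b and Kif3a lie higher in both transplanted groups than in their time-matched injured groups, while Kif20a overlaps, at means of 10.84 and 10.93 at 1 week.

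Among the mitotic kinesins, 0 of 10 were called in T1_NPC and only Kif23 in T2_NPC. Kif2c differed by -0.07 ± 0.37 and 0.04 ± 0.37 and Kif20a by 0.09 ± 0.26 and 0.08 ± 0.26. None of these was called, which does not show that the levels were equal. Of the 9 mitotic kinesins other than Kif14, 8 had lower means in T1_NPC than in T1 (median -0.19). In T2_NPC 6 of the 9 had lower means than in T2 (median -0.33). The effect at T2_NPC minus that at T1_NPC was called for 0 members by limma, with 4 at an unadjusted p under 0.05 (0.127% and 0.172% of all features were called higher and lower), so no member was shown to differ between the transplantation times. The T1_NPC calls rest on the spread shared over all groups: with only T1 and T1_NPC in the fit, 0 members were called, and Kif3a had an adjusted p of 0.0641. The call of Kif1b in T1_NPC was also lost without T1 replicate 3 (0.67, adjusted p = 0.0546) or T1_NPC replicate 2 (0.60, adjusted p = 0.0593). That of Tubb6 was lost without T1 replicate 1 or 3 or T1_NPC replicate 1 (adjusted p between 0.0536 and 0.0869), and with normexp (0.0601), the brightest probe (0.0937) or slide as a random block (0.0638). In T2_NPC, Kif3a was lost without T2 replicate 1 (adjusted p = 0.0629) or T2_NPC replicate 3 (0.0521), and with 75th-percentile scaling (0.0858). Klc1 was lost without T2 replicate 1, 2 or 3 or any 1 T2_NPC array (0.0604 to 0.1), and with the brightest probe (0.0563), slide as a random block (0.0686) or a replicate block (0.0524). Kif23 was lost without any 1 T2 array or T2_NPC replicate 1, 2 or 3 (0.0512 to 0.103), and with 75th-percentile scaling (0.0568) or slide as a random block (0.105).

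Other values differed with transplantation too. Oligodendrocyte markers ranged from 14.73 to 14.84 in T2_NPC and from 14.17 to 14.42 in T2, with Mbp 1.43 and Mobp 0.70 higher in T2_NPC, both called, and from 14.10 to 14.64 in T1_NPC and 13.97 to 14.21 in T1. Neuron markers ranged from 10.87 to 11.89 in T1_NPC and 10.61 to 11.54 in T1. Microglia and macrophage markers ranged from 10.68 to 12.27 in T1_NPC and from 11.88 to 12.43 in T1, with 1 of 7 called lower (P2ry12, -1.06). T1_NPC replicate 2 stood apart: it held the lowest microglia and the highest neuron level of its group (10.68 and 11.89), and the highest rank correlation of its scanner output with another array was 0.9789, the lowest of the 28. The scanner output of T1_NPC replicate 2 is deposited under T0 replicate 2, and those of the other T1_NPC arrays under T1, T8 and T4 samples. Without T1_NPC replicate 2, Kif3a, Tubb6 and Map1a were still called in T1_NPC and Kif1b was not. The part of these markers in the transplantation values was not tested. Of the dynactin subunits Dctn2 and Dctn5 were called higher in both transplanted groups (0.41 and 0.42, and 0.50 and 0.42), as was Clip1 (0.53 and 0.70). They were picked from lists of 19 and 22 genes, whose other members are not given here for transplantation. Of all features 5.45% were called higher in T1_NPC and 4.62% in T2_NPC, and the share called in both is not given here. By 75th-percentile scaling, 5230 of all features were called higher and 2069 lower in T1_NPC, beside 1933 and 2292 here, and the median of all features was 0.11 in place of -0.01.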

How the data were processed

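The labels and methods describe 28 single-colour rat arrays, 4 in each of 7 groups. The authors extracted signals (Agilent Feature Extraction 10.7.1.1, per the labels), quantile-normalized them and deposited a table of log2 values; the deposited scanner outputs hold linear intensity signals. Groups came from the labels. Scanner outputs and table were matched by rank order (Spearman 1.0, next best at most 0.9932) and named different samples for 16 of 28 arrays; background calls, slides and scan sessions come from the matched outputs. The table was used as given: 1639 control spots were left out, 43379 spots averaged to 41012 probes and these to 35469 features. limma 3.58.1 in R 4.3.3 fitted group means over all 28 arrays with eBayes (prior degrees of freedom 2.26), with Benjamini-Hochberg adjustment over all features and a threshold of 0.05; probes were fitted likewise. The script was tested on simulated data. Members, roles and gene lists were chosen with earlier results of these data known. Every member could be named; values per array are given for members that stand for their roles and those with the largest called changes, and a few others were chosen after their values were seen. Alternatives were other sources of the values, 75th-percentile scaling, normexp (offset 50, on median rather than the planned mean signals, since most outputs lack the latter), a filter on dim probes, the brightest probe, moderation with trend, only the compared groups, session, slide and replicate blocks, a fold of at least 2 and each array left out; leaving out outlier spots was added after seeing the data. Array number, not read depth, limits precision. Figures were drawn with matplotlib 3.10.9. The sequence of 1 probe is not reported here.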

Additional observations from a re-analysis of the deposited data

Results flagged for a closer look

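In 11 of 217 groups of 4 arrays tested over the named members, 1 array was flagged as apart from the other 3. Chance alone gives about 5% of groups, and the count is near that share, so no single flag stands out. A flag can rest on a small difference where the other 3 arrays lie close together. In T2_NPC replicate 4, the mitotic kinesins Kif18a (6.32), Kif4 (8.05) and Kif20b (7.64) stood apart on the log2 scale. In T2_NPC replicate 1 it was Kif13a (9.49, beside 9.53 on each of the other 3 arrays), and in T1_NPC replicate 3 Kif21a (5.91). Klc2 stood apart in T1 replicate 3 (12.16) and Klc1 in T1 replicate 1 (13.32). At later times Map1a did in T4 replicate 3 (11.11), Tuba4a in T4 replicate 1 (15.14) and Tubgcp6 in T8 replicate 2 (7.13). Among the T0 arrays, Kif16b stood apart in replicate 2 (6.78).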

How the results depend on the processing

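With scanner outputs under their deposited samples, 0 members were called in every comparison, and differences turned for Kif20b between T2 and T1 (0.14), Kif2c between T8 and T1 (0.035) and, in T1_NPC, Kif1b (-0.53), Kif3a (-0.26) and Klc1 (-0.25). With the brightest probe Tubb6 turned at T2 (-0.10), T4 (-0.10) and T8 (-0.23). With the 12 undisputed arrays, members called lower at T1 numbered 14, higher at T4 6 and at T8 6, between T2 and T1 0, between T8 and T1 6, and in T2_NPC 9; T1_NPC had no array among them. With a fold of at least 2, those lower numbered 12 in T1 and in T2, 9 in T4 and 10 in T8, those higher in T8 6, and those called 1 between T2 and T1, 0 in T1_NPC and 1 in T2_NPC. Between T2 and T1 the count was 6 with normexp, 5 with trended moderation, 5 with a session block, 5 with slide as a random block and 1 with only the compared groups. Only the compared groups gave 0 in T1_NPC, and 75th-percentile scaling and slide as a random block each gave 3 in T2_NPC. That scaling moved the median of all features at T1 from -0.10 to -0.28, and the calls on the difference between the transplantation effects from 45 higher and 61 lower to 90 and 1799.

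With single arrays left out, members called higher and lower against T0 ranged from 10 to 13 and 23 to 26 for T1, 11 to 12 and 25 to 28 for T2, 10 to 12 and 22 to 27 for T4, and 8 to 10 and 25 to 27 for T8. Between T2 and T1 they ranged from 1 (without T1 replicate 2 or 4 or T2 replicate 3) to 6 (without T2 replicate 4 or T1_NPC replicate 2), between T8 and T1 from 10 to 14, in T1_NPC from 2 (without T1 replicate 3) to 6 and in T2_NPC from 2 (without T2 replicate 1 or T2_NPC replicate 3) to 5. Between T4 and T2, T8 and T4, and the transplantation effects they stayed at 0 to 0. No comparison had all 4 same-numbered pairs correlated over 0.1, and T8 against T4 had 3. With so few pairs this cannot show whether replicate numbers pair the samples. With a replicate block the counts were 24 in place of 26 lower at T4, 11 in place of 12 between T8 and T1, 5 in place of 4 in T1_NPC and 4 in place of 5 in T2_NPC, and the others kept their value. Transplantation could not be fitted with session or slide as a fixed block. The cause of these changes was not tested.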
